A study of Mus musculus with 36 samples.

Results

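Testes of D1Pas1 knockout and wild-type mice were compared at postnatal day 28 (P28), over every gene of the table that holds this age. The comparison takes 3 wild-type libraries (numbered 1, 2 and 3) and 3 knockout libraries (numbered 4, 5 and 6) out of 36 samples in the series. It covers 24626 listed genes, of which 17636 had enough counts to be tested. D1PAS1 belongs to the DEAD-box RNA helicases, in the same subfamily as DDX3X, encoded on the X, and DDX3Y, encoded on the Y. The labels give the tissue as testis, the cell type as male germ cell and the genotypes as WT and KO. They do not name strain, allele or the deleted part of the gene, nor do they say that libraries come from separate animals, so p-values measure only the spread between these libraries. Libraries of the same 2 genotypes at P14 and P18, 3 each, are used below to place the P28 genes in time.

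Spermatogenesis runs from spermatogonia through a long meiotic prophase, in which chromosomes pair and recombine and the X and Y are silenced in the sex body, to the meiotic divisions. The round spermatids that follow build an acrosome, a flagellum and a manchette, and later replace their histones with protamines. The wild-type testis at P28 holds spermatids. Sertoli cells nurse the germ cells inside the tubule, and Leydig cells, macrophages, peritubular myoid cells and vessels lie around it.

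Many spermatid genes were far lower in the knockout libraries, as the lists below show. Of all genes tested, 5579 were called lower (31.6%) and 4347 higher (24.6%), together 56.3%, by edgeR's quasi-likelihood test at a Benjamini-Hochberg adjusted p of 0.05. The genes called higher at P28 numbered 2244 without wild-type library 2 and 2897 without knockout library 5. The falls were deeper than the rises. Genes called lower had a median log2 fold change (knockout over wild type) of -2.40, and 1160 of them fell by more than 6 on the log2 scale and a further 650 by 4 to 6. Genes called higher had a median of 1.04, and 2 rose by more than 6 and 12 by 4 to 6. All fold changes are on one relative scale, set by trimmed-mean (TMM) factors, on which the median gene stood at 0.05. In whole-tissue RNA, fewer cells of a type and less RNA per cell cannot be told apart. Every library of one group lay beyond every library of the other for 35.2% of genes in the lower and 33.4% in the higher direction, 68.5% in all.

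Estimated counts totalled 29916381 to 40927153 in wild-type and 23683321 to 35564233 in knockout libraries. Over the tested genes, wild-type library 3 was closest to the knockout, with Spearman correlations across genes of 0.785 to 0.814 against 0.717 to 0.757 for wild-type libraries 1 and 2. Knockout library 4 held more of the latest spermatid transcripts than libraries 5 and 6, as the values of Prm1 below show. Markers of Sertoli and Leydig cells were abundant in every library, up to 6427 CPM (counts scaled to library size) for Insl3, although the labels give a germ-cell type. Lymphocyte and granulocyte markers were near 0, at most 2.11 CPM.

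D1Pas1 itself, at chr1:186967416-186970627, stood at 356, 241 and 167 CPM in wild-type libraries 1 to 3 and at 30.8, 40.03 and 43.1 CPM in knockout libraries 4 to 6. The groups did not overlap, and the log2 fold change was -2.74 ± 0.31 (SE; edgeR adjusted p = 1.81e-04). The remaining reads were not traced to a part of the gene. Ddx3x stood at 108, 98.8 and 162 CPM against 292, 271 and 328, and Ddx3y at 33.2, 30.8 and 57.5 against 104, 96.0 and 122. Their log2 fold changes were 1.27 ± 0.23 and 1.40 ± 0.27 (edgeR adjusted p = 0.00250 and 0.00307), but 0.38 and 0.52 on a scale set by Sertoli cell genes, where neither was called. The sources used here do not say how reads shared by such related genes were assigned. Ddx4, which encodes the germ-cell helicase VASA, fell by 0.72 (edgeR adjusted p = 0.0153), a call lost without knockout library 4 (-0.67, adjusted p = 0.0533) or 5 (-0.69, adjusted p = 0.0570).

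Of 33 tested genes of the outer dense fibres and fibrous sheath, the stiffening structures of the sperm flagellum, 32 fell and none rose, and the median stood at -7.36 on the log2 scale, with quartiles of -8.53 and -4.86. Tssk1, a testis serine kinase, stood at 218, 192 and 125 CPM in wild type and at 1.96, 1.41 and 0.937 CPM in the knockout. Its substrate gene Tsks fell by 7.46 ± 0.45 on the log2 scale and Qrich2, needed for the flagellum, by 5.22 ± 0.30. The summed level of the list in knockout libraries was 4.77%, 4.37% and 3.49% of the wild-type mean. The member that was not called, Slc25a31, a germ-cell carrier of ATP and ADP, stood at 43.9 to 63.3 CPM in wild type and 45.3 to 67.0 CPM in the knockout.

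All 42 tested genes of the axoneme, the microtubule core of the flagellum with its dynein motors, fell, with a median of -3.48 (quartiles -4.28 to -2.53). Dnaic2, a dynein intermediate chain, stood at 109, 93.2 and 59.5 CPM in wild type and at 0.704, 0.645 and 0.504 CPM in the knockout. Tekt2, a tektin, fell by 6.36 ± 0.29 on the log2 scale, the dynein heavy chain gene Dnah10 had a log2 fold change of -5.86 ± 0.29 and Iqub, of the radial spokes, -4.27 ± 0.23. The 3 knockout libraries kept 15.0%, 12.9% and 15.5% of the wild-type summed level of this list. At P18 medians were -2.42 for the axoneme and -1.27 for the 18 sheath genes that could be tested there, fewer than at P28.

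Promoters of the genes that fell were compared by base composition and by 14 short letter strings, searched on both strands of 300 bases from 250 before to 50 after the annotated start. Strings and gene classes were chosen after seeing the data, so the shares are a description only. RefSeq promoters on GRCm38.p6 matched 13039 of the tested genes. A gene held a string if any of its annotated promoters did, so shares are of genes, while base composition used the first promoter only. Genes that fell by at least 4 on the log2 scale had 50.9% G and C on average over 1310 promoters, against 59.3% for all tested genes and 60.7% for those called higher. Over all 27025 genes with a promoter, tested or not, the mean was 53.6%, nearer the fallen genes. The GC box GGGGCGG was in 13.7% of these fallen genes against 42.0% of all tested and 47.7% of the higher genes, and in 25.5% of all genes with a promoter. GTTGCCA, the left arm of the X box bound by RFX factors, which act on genes of cilia and flagella, was in 10.8% against 5.30% and 3.28%, and in 5.02% of all 27025 genes with a promoter. The fuller X box, with 2 free centre bases, showed little difference, with 0.458% against 0.422% of all tested, and was in none of 36 axoneme promoters. Of the MYB strings, CAACTG was in 20.5% against 14.0% and the longer TAACTGNC in 4.05% against 2.38%. The other MYB strings differed little, with AACGGT in 4.43% against 4.62% and AACNGCC in 16.2% against 15.6%. ACAATAG, a SOX string, was in 4.12% against 2.06%. TGACGTCA, the cyclic AMP response element, was not more frequent, with 2.44% against 3.19%, nor was its core TGACGT, with 7.02% against 11.6%. CACGTG, the E box, was in 5.57% against 10.7%, and TATAAA in 13.2% against 9.79%, but in 15.7% of all genes with a promoter.

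Among 36 axoneme genes with a promoter, 12 held CAACTG (33.3%, against 14.0% of all tested genes) and 14 held AACNGCC (38.9% against 15.6%). GTTGCCA was in 7 of the 36 (19.4%), so it was not the only string more frequent there. None of 27 Sertoli genes held GTTGCCA, but 27 genes are few beside a share of 5.30%. The share was 12.5% in the manchette list, 9.68% in the acrosome list, 6.25% in the channel list and 6.90% (2 of 29) in the sheath list, near the 5.30% of all tested genes. The upstream bases around it are shown for 4 of these, abundant in wild type and, apart from Cfap44, picked after their values were seen, to let the place of the string and its surroundings be read. They lie at chr11:72361883-72361947 (Tekt1, minus strand), chr8:110266913-110266976 (Hydin, plus strand), chr16:44394619-44394725 (Cfap44, plus strand) and chr12:69198430-69198489 (Dnaaf2, minus strand), each ending at or before the base ahead of the start. Capitals mark GTTGCCA or its reverse complement TGGCAAC.
Tekt1: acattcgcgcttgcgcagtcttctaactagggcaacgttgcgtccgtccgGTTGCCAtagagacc
Hydin: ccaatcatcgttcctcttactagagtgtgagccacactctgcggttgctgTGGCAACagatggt
Cfap44: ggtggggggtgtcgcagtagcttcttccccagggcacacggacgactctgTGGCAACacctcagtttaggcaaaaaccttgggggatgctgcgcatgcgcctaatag
Dnaaf2: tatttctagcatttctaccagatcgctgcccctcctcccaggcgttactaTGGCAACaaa
The capitals begin 15, 14, 130 and 10 bases ahead of the start in these 4 promoters. Tekt1, a tektin, fell from 333 ± 84.1 to 20.7 ± 4.22 CPM, and Hydin, of the central pair of the axoneme, from 329 ± 102 to 42.2 ± 6.83 CPM. Cfap44 fell from 160 ± 35.9 to 11.04 ± 1.51 CPM. Dnaaf2, which assembles dyneins, fell least of the 4, from 120 ± 73.5 to 39.3 ± 11.3 CPM (n = 3 per group, edgeR adjusted p = 0.0138). The presence of the letters does not show that a factor binds there.

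Acrosome genes fell in 32 of 36 cases and rose in 3, with a median of -6.88. Zpbp2, which binds the coat of the egg, stood at 331, 298 and 254 CPM in wild type against 14.8, 17.0 and 14.4 CPM. Fam209 fell by 8.85 ± 0.43 on the log2 scale, Actl7b, an actin-like protein gene, by 5.57 ± 0.32, and Acrbp, which holds proacrosin, by 4.22 ± 0.25. Among the 3 that rose, Vps54, of retrograde transport to the Golgi, rose by 1.17 ± 0.15 and Rnf13, a ubiquitin ligase gene, by 1.26 ± 0.20. Genes for sperm migration and egg interaction fell in 21 of 23 cases and none rose. Their median was -6.26, or -5.11 with the member at 0 knockout counts set at its bound. Izumo1, required for fusion with the egg, stood at 76.2, 50.2 and 40.6 CPM against 0.478, 0.392 and 0.504 CPM, and Adam1b fell by 7.28 ± 0.32.

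Ion channel and signalling genes of the sperm fell in 22 of 24 cases and none rose, with a median of -4.82. The CatSper channel genes with the smallest p were Efcab9, at a log2 fold change of -7.30 ± 0.35, Tex40 (Catsperz) at -6.53 ± 0.30 and Catsperd at -4.72 ± 0.24. Ppp3r2, a sperm calcineurin subunit, stood at 347, 370 and 288 CPM in wild type and at 8.17, 7.93 and 5.80 CPM in the knockout. Genes of the manchette, intraflagellar transport and head shaping fell in 25 of 30 cases and 1 rose, with a median of -2.27. Sun5, which anchors the tail to the nucleus, fell by 8.51 ± 0.49 and Spag4 by 6.62 ± 0.37. Hook2 fell by 3.30 ± 0.25, whereas its relative Hook3 rose by 0.94 ± 0.20.

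Of 28 tested genes of histone-to-protamine exchange 16 fell and 1 rose, beside 31.6% lower and 24.6% higher of all genes. Their median was -1.18, with quartiles from -7.99 to 0.07. Prm3, a protamine-like gene, stood at 49.96, 32.6 and 23.6 CPM in wild type and at 0.176, 0 and 0.0360 CPM in the knockout. Chd5, a chromatin remodeller of elongating spermatids, fell by 6.36 ± 0.46 on the log2 scale and Phf7, a histone ubiquitin ligase gene, by 1.94 ± 0.21. The member that rose, H2bfm, is described with the X-linked genes below. H3f3b, which encodes a replication-independent histone of all cells, stood at 1452 to 1942 CPM in wild type and 1694 to 1948 CPM in the knockout and was not called.

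The latest transcripts were not equally absent from the 3 knockout libraries. Prm1, the protamine gene, chosen here after its values were seen, stood at 3264, 5544 and 3750 CPM in wild type. It stood at 34.6 CPM in knockout library 4 but at 2.19 and 3.14 CPM in libraries 5 and 6, which is 0.827%, 0.0523% and 0.0749% of the wild-type mean. Tnp1, a transition protein gene, and Akap4, the main fibrous sheath gene, both picked afterwards, followed the same order, at 11.9, 0.576 and 0.937 CPM and at 9.002, 0.945 and 1.01 CPM. Without library 4 all the tail, axoneme, acrosome, egg interaction, channel, manchette and chromatin genes named above as fallen were still called lower, whereas Ddx4 was not.

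**Figure D1:**
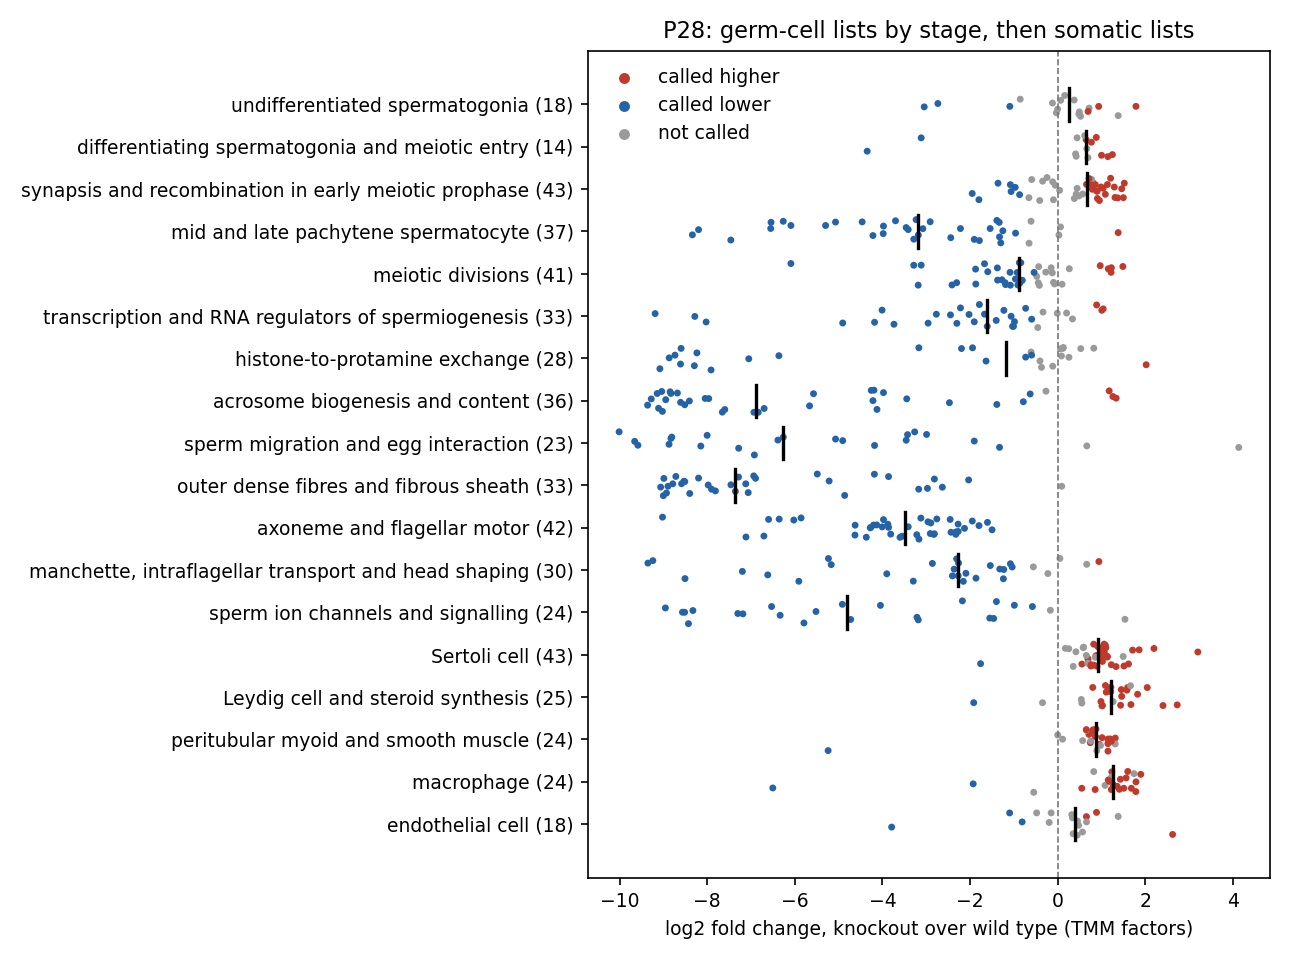
Log2 fold changes (knockout over wild type, horizontal axis) of the tested members of 18 gene lists, with the number tested in brackets; red points were called higher, blue lower, grey not called, and black bars mark list medians. From the pachytene list to the ion channels list medians lie left of 0, while the medians of the 3 earlier germ-cell lists and of the somatic lists lie to its right.

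Genes that switch on in mid and late pachytene fell in 32 of 37 cases and rose in 1 (median -3.18, quartiles -4.46 to -1.33). Ccna1, the germ-cell cyclin A, stood at 240, 232 and 144 CPM in wild type and at 2.59, 2.79 and 3.68 CPM in the knockout. Pgk2, the germ-cell phosphoglycerate kinase, fell by 6.55 ± 0.35 on the log2 scale and Dbil5, a relative of the acyl-CoA binding proteins, by 6.54 ± 0.40. Hist1h2ba, the testis histone H2B, was not called, at 173 to 534 CPM in wild type and 290 to 508 CPM in the knockout. Genes of the meiotic divisions fell in 25 of 41 cases and rose in 5, with a smaller median of -0.88. Plk1, a kinase of the division, fell by 3.18 ± 0.26 and Aurkc, of meiotic spindles, by 3.29 ± 0.27. Ccnb3, a meiotic cyclin B, rose by 1.22 ± 0.23 and Mad2l1, of the spindle checkpoint, by 0.97 ± 0.20.

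Regulators of spermiogenesis fell in 25 of 33 cases and rose in 3, with a median of -1.61. Hsfy2, a heat-shock-factor-like gene, fell by 9.19 ± 0.56 on the log2 scale and Gtf2a1l, a germ-cell form of the general factor TFIIA, by 4.18 ± 0.27. The germ-cell poly(A)-binding protein genes Pabpc2 and Pabpc6 stood at 756 to 1240 and 453 to 844 CPM in wild type and at 27.9 to 34.8 and 39.8 to 43.2 CPM in the knockout. Dazl, an RNA-binding protein gene of earlier germ cells, rose from 636 ± 114 to 1278 ± 157 CPM (mean ± SD, n = 3 per group, edgeR adjusted p = 0.00557), although on the Sertoli scale its fold change was 0.08.

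Synapsis and recombination genes rose in 21 of 43 cases and fell in 7 (median 0.66), beside 24.6% higher and 31.6% lower of all genes. On the Sertoli scale the median became -0.29, with 0 members higher and 16 lower. Mcmdc2, needed for homologous pairing, stood at 8.86, 9.53 and 10.6 CPM in wild type and at 26.3, 25.6 and 28.1 CPM in the knockout. Hfm1, a crossover helicase gene, rose by 1.14 ± 0.19 and Meiob, of single-strand DNA repair, by 1.31 ± 0.24. Syce1, of the central element of the synaptonemal complex, fell from 562 ± 202 to 145 ± 15.6 CPM (n = 3 per group, edgeR adjusted p = 7.47e-04), and 4930432K21Rik, which encodes the recombination factor BRME1, fell by 1.80 ± 0.18. The list therefore holds members that moved in opposite directions.

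Undifferentiated spermatogonia genes rose in 3 and fell in 3 of 18 cases (median 0.27, and -0.60 on the Sertoli scale). Of all genes, 24.6% were higher and 31.6% lower. Tspan8, a surface marker of stem-like spermatogonia, stood at 12.1 to 15.0 CPM in wild type and 39.2 to 53.9 CPM in the knockout, a rise of 1.79 ± 0.19. Pou5f1 and Eomes, transcription factor genes of stem-like cells, were lower, at -3.05 ± 0.49 and -2.74 ± 0.53, from low wild-type levels of 1.48 ± 0.156 and 0.850 ± 0.167 CPM. Id4, another marker, stood at 87.5 to 135 and 93.2 to 110 CPM and was not called. Genes of differentiating spermatogonia and meiotic entry rose in 6 and fell in 2 of 14 cases (median 0.66, and -0.23 on the Sertoli scale). Prdm9, which places recombination hotspots, rose by 1.14 ± 0.24. The 2 that fell were Dmrtb1, a regulator of the entry into meiosis, at -4.35 ± 0.27 and Rec8, a meiotic cohesin gene, at -3.12 ± 0.28, from wild-type levels of 309 ± 85.7 and 27.0 ± 7.32 CPM.

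Energy metabolism showed a split between isoforms. Spermatocytes and spermatids use their own versions of many glycolytic and mitochondrial proteins, often encoded by retrogenes of X-linked genes. Of 25 germ-cell isoform genes 20 fell and none rose (median -3.50), whereas of 26 widely expressed partners 18 rose and 4 fell (median 0.93, and 0.02 on the Sertoli scale). Pgk2 stood at 368, 382 and 334 CPM in wild type and at 5.28, 3.87 and 2.34 CPM in the knockout. Its X-linked parent Pgk1 stood at 22.9, 26.9 and 27.7 CPM against 57.4, 49.6 and 48.0 CPM. Under TMM factors both moved, in opposite directions, without overlap, as 68.5% of all genes did not overlap. On the Sertoli scale, however, Pgk1 stood at 0.08. Pdha2 fell by 0.96 ± 0.23 on the log2 scale and the X-linked Pdha1, of pyruvate dehydrogenase, rose by 1.25 ± 0.24.

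In 17 pairs, matched after their values were seen, the germ-cell member was called lower in 14 and its partner called higher in 12, with both in 9. Slc16a7, a lactate carrier gene, fell by 4.62 ± 0.30 while Slc16a1 rose by 1.03 ± 0.20. Hk1, a hexokinase gene with a germ-cell transcript, fell by 5.75 ± 0.38 while Hk2 rose by 0.75 ± 0.19 (-0.16 on the Sertoli scale). The cytochrome oxidase subunits Cox7b2 and Cox7b had values of -0.65 (edgeR adjusted p = 0.0567) and 1.55 ± 0.25. In 2 pairs both members were called lower. Ldhc fell by 3.18 ± 0.31 and Ldha by 3.02 ± 0.21, from 659 ± 84.3 to 81.3 ± 9.76 CPM. Oxct2a, of ketone body use, fell by 8.54 ± 0.65 and Oxct1 by 0.84 ± 0.28 (edgeR adjusted p = 0.0330). The call of Oxct1 was lost without wild-type library 1 (-0.45, adjusted p = 0.0507) or knockout library 4 (-0.86, adjusted p = 0.0566), 5 (-0.74, adjusted p = 0.0942) or 6 (-0.85, adjusted p = 0.0649). Cyct, the testis cytochrome c, had a value of 0.11 ± 0.34 and was not called.

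**Figure D2:**
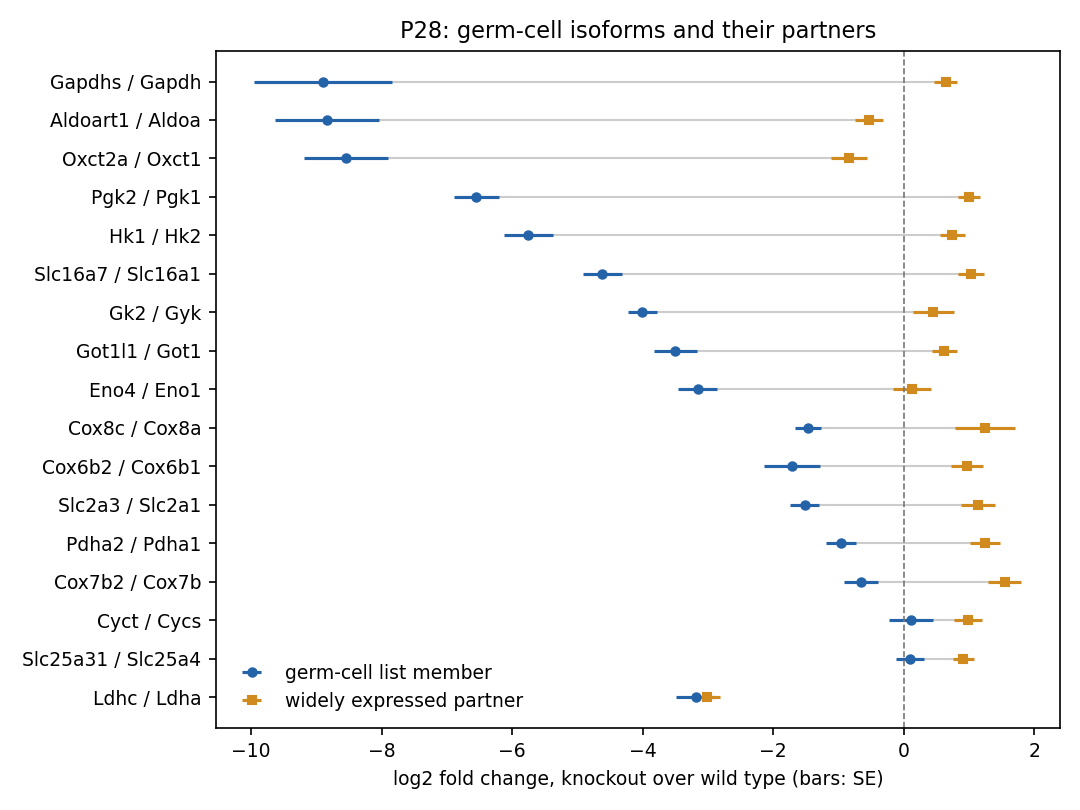
Log2 fold changes of 17 germ-cell isoforms (blue circles) and their widely expressed partners (orange squares), with bars for the standard error, ordered by the difference within a pair. Circles reach -8.90 for Gapdhs, squares lie between -3.02 for Ldha and 1.55 for Cox7b, and only in the Ldhc pair do both symbols lie near -3.

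X-linked genes divided into a small group that fell deeply and a large group that was higher. Of 795 tested, 359 were higher (45.2%) and 197 lower (24.8%), with a median of 0.80, against 3942 higher (23.7%) and 5303 lower (31.9%) of 16618 autosomal genes, with a median of 0.02. Among the genes called higher at P28, the X-linked ones numbered 225 without wild-type library 2. There were 137 X-linked genes below -4, a limit set after seeing the data, and their median was -7.53. On the Sertoli scale the X-linked median was -0.11, with 31 genes higher, and the autosomal median -0.91. Of 39 listed genes that are silenced in the sex body, 33 rose and none fell (median 1.00, or 0.08 on the Sertoli scale). Zfx, a zinc finger gene, stood at 44.9, 44.1 and 59.0 CPM in wild type and at 101, 104 and 118 CPM in the knockout. Hprt, of purine salvage, rose by 1.22 ± 0.20, Rbmx, a splicing factor gene, by 1.37 ± 0.23 and the ribosomal gene Rpl36a by 1.47 ± 0.23.

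X-linked genes that are reactivated in spermatids fell in 22 of 30 cases and rose in 3, with a median of -6.56. Actrt1, of the sperm head skeleton, stood at 27.2, 22.6 and 20.8 CPM in wild type and at 0.0251, 0 and 0.0360 CPM in the knockout. Cypt2 fell by 8.35 ± 0.51 on the log2 scale. H2bfm, a histone H2B gene, rose by 2.02 ± 0.28 and Magea5, a germ-cell antigen gene, by 1.75 ± 0.32, and both stayed called higher on the Sertoli scale (1.07 and 0.86).

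Of 43 tested Y-linked genes 9 were higher and 27 lower. Of the 43, 29 are predicted or clone-named models, among which identical values occur, so shared reads make their single values uncertain. Among the 14 named genes, 5 were higher and 5 lower, beside 24.6% higher and 31.6% lower of all genes. Sly, the multicopy spermatid regulator, stood at 679, 284 and 280 CPM in wild type and at 4.63, 1.89 and 4.54 CPM in the knockout, and Ssty2 fell by 6.12 ± 0.54 on the log2 scale. Rbmy, an RNA-binding protein gene of early germ cells, rose by 1.69 ± 0.32, the histone demethylase genes Kdm5d and Uty by 1.44 ± 0.31 and 0.90 ± 0.16, the latter at -0.02 on the Sertoli scale. Usp9y, picked after its values were seen, rose by 0.67 (-0.26 on the Sertoli scale), a call lost without wild-type library 2 (0.57, adjusted p = 0.113) or knockout library 4 (0.72, adjusted p = 0.0543) or 6 (0.47, adjusted p = 0.0948). Zfy2, a zinc finger gene expressed in spermatids too and named here after its values were seen, stood at 13.2 to 15.9 CPM in wild type and 12.8 to 18.5 CPM in the knockout.

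**Figure D3:**
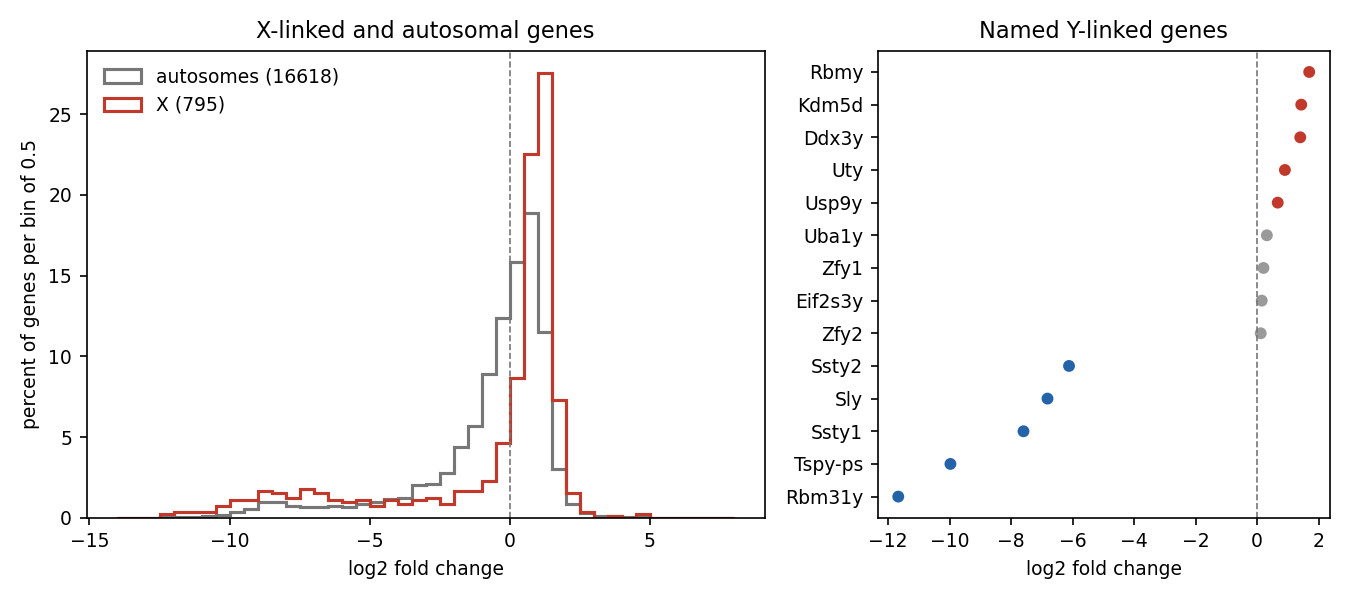
Left, the share of genes (percent per bin of 0.5) by log2 fold change for 16618 autosomal (grey) and 795 X-linked genes (red); right, the values of the 14 named Y-linked genes, red where called higher, blue lower, grey not called. The X-linked peak lies to the right of the autosomal peak and a second X-linked group lies near -7.53; on the Y, 5 genes lie at or below -6.12.

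The summed level of 44 Sertoli cell markers was 3255 to 4406 CPM in wild type and 6522 to 8047 CPM in the knockout. Of 43 tested, 31 rose and 1 fell (median 0.92), beside 24.6% higher and 31.6% lower of all genes. Shbg, which encodes androgen-binding protein in the testis, stood at 7.47, 9.95 and 15.3 CPM in wild type and at 59.97, 48.8 and 41.9 CPM in the knockout, a rise of 2.20 ± 0.29. Vim, which encodes vimentin, rose by 1.06 ± 0.17 and Cst12, a cystatin gene, by 1.61 ± 0.27. The Sertoli member that fell was Abcg2, at -1.76 ± 0.27. Leydig cell genes rose in 18 of 25 cases and fell in 1, with a higher median of 1.21. Insl3, a Leydig hormone, stood at 1422, 1308 and 1938 CPM against 6427, 5419 and 4675 CPM, and Hsd3b6, of steroid synthesis, at 64.0, 59.6 and 68.6 CPM against 552, 215 and 250 CPM. Knockout library 4 had the highest level of both. The Leydig member that fell was Nr4a1, at -1.92 ± 0.36.

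Macrophage markers rose in 17 of 24 cases and fell in 2 (median 1.25). Lyz2, lysozyme, stood at 17.4, 17.4 and 32.2 CPM in wild type and at 82.7, 77.2 and 70.8 CPM in the knockout, and Cd68 rose by 1.599 ± 0.23. Peritubular genes rose in 15 of 24 cases and fell in 1 (median 0.87), among them Tpm1, a tropomyosin, by 1.15 ± 0.21 and Dcn, decorin, by 1.31 ± 0.27. Endothelial markers were mixed, with 3 higher and 3 lower of 18 (median 0.40, and -0.51 on the Sertoli scale). Robo4, Cdh5 and Kdr rose by 2.62 ± 0.41, 0.89 ± 0.29 and 0.66 ± 0.24 (1.73, -0.01 and -0.27 on the Sertoli scale). Of all genes, 24.6% were higher and 31.6% lower. Some listed markers fell deeply: Aif1 of the macrophage list from 187 ± 74.4 to 2.08 ± 0.825 CPM, while Actg2 of the smooth muscle list stood at a log2 fold change of -5.24 ± 0.37 and Sox17 of the endothelial list at -3.79 ± 0.30. With Aif1 in it, the summed level of the macrophage list did not separate the groups, at 471 to 548 CPM in wild type and 530 to 562 CPM in the knockout. Fewer members of other lists were tested: of 17 lymphocyte and granulocyte markers 7 were tested, of which none rose and 1 fell, and of 19 epididymal markers 6, of which none rose and 3 fell.

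Which genes count as unchanged depends on the scale. Library totals moved the median of all genes by 0.53 and gave 7276 higher and 4252 lower genes. Factors set so that the Sertoli list keeps its level moved it by -0.93 and gave 231 higher (1.31%) and 8824 lower (50.0%). DESeq2's size factors moved it by -0.07 (3879 higher, 5760 lower) and upper-quartile factors by 0.41 (6932 higher, 4595 lower). TMM factors from genes outside the germ-cell lists moved it by -0.01 (4196 higher, 5616 lower). No gene called in one direction under TMM was called in the other under any of these. Calls also went among genes further from 0, since the Sertoli scale kept only the 231 higher calls and library totals 4252 of the 5579 lower calls. Of 4868 genes within 0.5 of 0 on the log2 scale, TMM called 125. Library totals called 1790 of them higher and none lower, and the Sertoli scale called 2539 lower and none higher.

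On the Sertoli scale, which reads as RNA per unit of Sertoli RNA, most lists that rose lost their rise. The X-linked silenced list stood at 0.08, synapsis at -0.29, enzyme partners at 0.02 and peritubular genes at -0.03. The Leydig list stood at 0.33 and the macrophage list at 0.37, but most of their members were not called there. Of 25 Leydig genes 5 were higher and 2 lower, and of 24 macrophage genes 4 were higher and 3 lower. The Sertoli list's own value of 0.02 is fixed by the choice of scale. In all 6 scalings 4252 genes were lower and 231 higher. The 4252 include 32 of 33 sheath genes, all 42 axoneme genes, 30 of 36 acrosome genes and 30 of 37 pachytene genes. Among the 231 were Insl3 (0.93 on the Sertoli scale), Hsd3b6 (1.495), Shbg (1.33), Lyz2 (0.91), Mpeg1, of macrophages (0.91), Tspan8 (0.87) and Perp, an apoptosis gene (1.18).

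**Figure D4:**
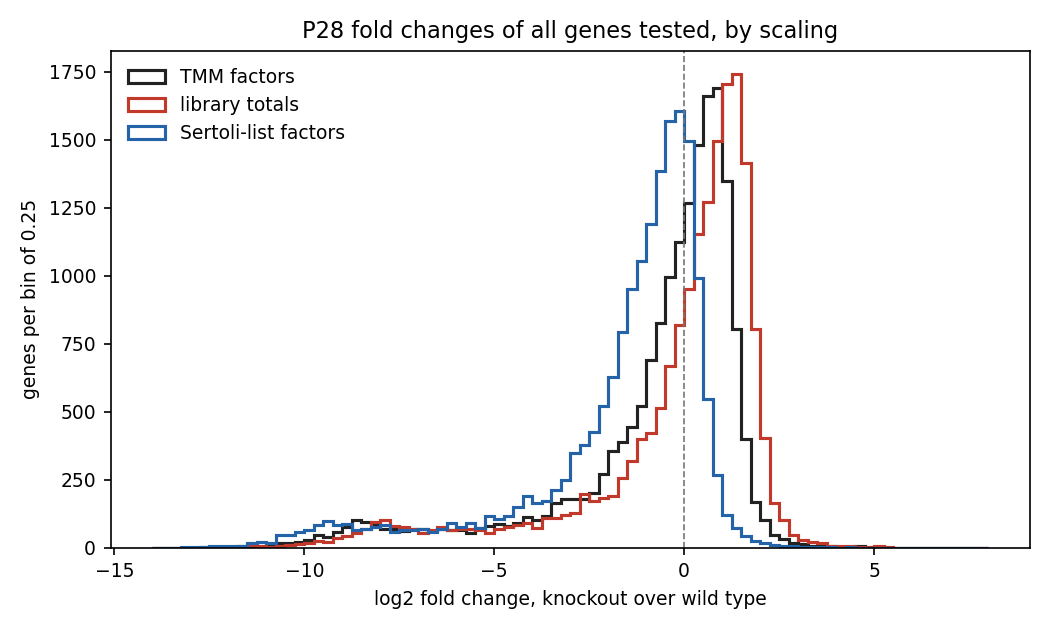
Number of tested genes (bins of 0.25) by log2 fold change under TMM factors (black), library totals (red) and Sertoli-list factors (blue). The main peak shifts as a whole, with medians of 0.05, 0.59 and -0.88, while all 3 curves keep a long tail below -4.

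Single genes with the largest rises were mostly low in wild type. They were taken from 3973 higher genes whose groups did not overlap and whose log2 CPM averaged 1 or more, leaving out 225 predicted or clone-named models. Fgf9, a growth factor of the fetal gonad, stood at 0, 0.121 and 1.37 CPM in wild type and at 13.0, 9.56 and 30.6 CPM in the knockout. Nkx2-1, a transcription factor gene of thyroid and lung, stood at 0.910, 0.121 and 0.127 CPM against 5.76, 3.20 and 13.8 CPM. Itgax, the integrin CD11c of dendritic cells and macrophages, rose by 3.84 ± 0.30 and Timp1, an inhibitor of matrix proteases, by 3.52 ± 0.40. Myoz3 rose by 4.73 ± 0.67, the deubiquitinase gene Usp17la by 4.16 ± 0.71, Clca3a2 by 3.77 ± 0.55 and the desmocollin gene Dsc2 by 3.44 ± 0.35.

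Several of these rises were uneven among knockout libraries. Fgf9, Nkx2-1, Usp17la and Myoz3 were highest in library 6, at 30.6, 13.8, 18.0 and 13.9 CPM. Ly6d stood at 21.8, 3.00 and 1.15 CPM and Fos, an immediate-early gene, at 12.2, 3.96 and 1.91 CPM, both highest in library 4. Ly6d was not called without wild-type library 2 (4.75, adjusted p = 0.0609), nor Fos without wild-type library 3 (3.66, adjusted p = 0.0540) or knockout library 4 (2.48, adjusted p = 0.0625).

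The largest falls reached 0 counts in all knockout libraries, which held for 230 genes called lower, 85 of them named. Against a floor of 3 counts over the 3 knockout libraries, Acot10 was at least 1031-fold lower, from 32.5, 29.3 and 21.8 CPM in wild type. It encodes an acyl-CoA thioesterase. Zdhhc11, a palmitoyltransferase gene, was at least 866-fold lower, Abhd16b at least 816-fold, Iqcf6 at least 735-fold and Vmn2r7, named as a vomeronasal receptor gene, at least 692-fold. The X-linked Cldn34d and Samt2 were at least 448-fold and 397-fold lower, and the Y-linked Rbm31y, which shares its values with a predicted model, at least 443-fold. Ccdc34os and Slfn5os, antisense by name, were at least 683-fold and 440-fold lower, but without a stated strand their reads cannot be told from those of the opposite strand. Candidates here numbered 4737, of which 958 were predicted or clone-named models.

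Of 34 other DEAD-box genes 8 were higher and 7 lower (median 0.06, close to the 0.05 of all genes, and -0.88 on the Sertoli scale), beside 24.6% higher and 31.6% lower of all genes. Ddx25, a spermatid helicase gene, fell from 379 ± 94.9 to 69.4 ± 3.72 CPM and Ddx20, of the SMN complex, by 2.27 ± 0.24. Among the higher members, Ddx19a rose by 0.91 ± 0.23, Ddx31 by 0.83 ± 0.22, Ddx10 by 0.75 ± 0.21 and Ddx17 by 0.70 ± 0.19. On the Sertoli scale these 4 stood at 0.01, -0.08, -0.18 and -0.24. Ddx6 was not called, at 263.4 to 306.4 CPM in wild type and 287.5 to 303.5 CPM in the knockout. Of 24 genes for processing of R-loops, RNA-DNA hybrids with a displaced strand, 6 were higher and 5 lower (median 0.09, and -0.82 on the Sertoli scale). Rnaseh2a, the catalytic subunit of RNase H2, stood at 405, 607 and 476 CPM in wild type and at 37.9, 36.8 and 27.4 CPM in the knockout. In contrast Rnaseh2b, of the same enzyme, rose by 1.14 ± 0.29 from 9.25 ± 2.47 CPM. Atad5, of PCNA unloading, rose by 1.17 ± 0.18 and Thoc2, of mRNA export, by 1.23 ± 0.22, while Thoc5 of the same complex fell by 1.55 ± 0.26.

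Of 16 PIWI proteins and tudor scaffolds 4 fell and 1 rose (median -0.03, and 0.51 with library totals), and of 19 precursor and processing factors 7 fell and 2 rose (median -0.15, and 0.41 with library totals), beside 31.6% of all genes lower. Tdrd6, a scaffold of the chromatoid body of spermatids, stood at 1805, 1649 and 1013 CPM in wild type and at 155, 181 and 149 CPM in the knockout. Mael fell by 1.67 ± 0.20 on the log2 scale, Gtsf1 by 3.03 ± 0.27, Henmt1, which methylates piRNA ends, by 1.80 ± 0.17 and Kif17, a motor of spermatids, by 6.84 ± 0.49. Piwil2 was not called, at 271 to 378 CPM in wild type and 342 to 431 CPM in the knockout.

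The table also lists piRNA cluster transcripts, grouped here after their values were seen. Of 100 tested intergenic clusters 43 were lower and 1 higher, with a median of -0.52, which was 0.05 with library totals (21 lower, 18 higher) and -1.46 on the Sertoli scale. At P18, in other libraries, 82 of 99 were lower, with a median of -1.30. The difference between the ages was not tested. Of 114 genic clusters 22 were lower and 25 higher (median 0.23, and -0.70 on the Sertoli scale), beside 31.6% lower and 24.6% higher of all genes. The most abundant intergenic cluster in wild type, 2-qG3-1029, picked afterwards, stood at 1491, 1317 and 1388 CPM against 1129, 1123 and 1194 CPM, groups that did not overlap, but it was not called (-0.28 ± 0.18, adjusted p = 0.202).

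Chaperone genes moved in both directions, beside 31.6% lower and 24.6% higher of all genes. Of 30 heat-shock genes 14 fell and 4 rose (median -0.64). Hspb9, a testis small heat-shock protein gene, stood at 359, 339 and 339 CPM in wild type and at 2.89, 1.34 and 0.721 CPM in the knockout, and Dnajb3 fell by 4.05 ± 0.21. Hspd1, the mitochondrial chaperonin, rose by 1.12 ± 0.21. Proteasome and ubiquitin genes fell in 16 of 36 cases and rose in 3 (median -0.51, and 0.08 with library totals). March10, a ligase gene of elongating spermatids, fell by 4.97 ± 0.36. The proteasome subunit genes Psma6 and Psma7 went opposite ways, by -1.64 ± 0.19 and 1.10 ± 0.18.

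Translation factors fell in 15 of 34 cases and rose in 5 (median -0.59, and -0.00 with library totals). Of all genes, 31.6% were lower and 24.6% higher. Eef1d fell by 2.62 ± 0.24 and Eif3b by 1.64 ± 0.18, while the X-linked Eif2s3x rose by 1.10 ± 0.19. Of 80 cytosolic ribosomal genes 11 fell and 10 rose (median -0.09, and 0.44 with library totals). Rpl39l, a germ-cell paralog, fell from 227 ± 28.2 to 84.9 ± 7.12 CPM, and the X-linked Rpl10 rose from 85.3 ± 18.3 to 189 ± 12.4 CPM. Respiratory chain genes fell in 15 of 40 cases, near the share of all genes, and rose in 3. Their median was -0.27, and 0.27 with library totals, under which 1 was lower and 14 higher. Cox7a2 fell by 1.18 ± 0.16 and the X-linked Ndufa1 rose by 1.12 ± 0.20.

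Of 34 p53 target and apoptosis genes 18 rose and 2 fell (median 0.90, and 0.01 on the Sertoli scale). Perp stood at 2.63, 3.08 and 3.22 CPM in wild type and at 10.99, 13.2 and 14.2 CPM in the knockout, Ccng1, a p53-induced cyclin gene, rose by 1.24 ± 0.17 and Gadd45a by 1.64 ± 0.25. Interferon response genes rose in 15 of 22 cases and fell in 1 (median 1.19, and 0.30 on the Sertoli scale), with Ifih1, an RNA sensor gene, rising by 1.43 ± 0.20 and Mx1 falling by 1.67 ± 0.38. Of 25 integrated stress and unfolded protein response genes 11 rose and 4 fell (median 0.68, and -0.23 on the Sertoli scale). Atf4 rose by 1.02 ± 0.20 while Ddit3, its target gene, fell by 1.80 ± 0.21. DNA repair genes rose in 10 and fell in 9 of 39 cases, beside 24.6% higher and 31.6% lower of all genes. Their median was 0.19, and -0.74 on the Sertoli scale. Atm rose by 1.04 ± 0.18 and Rpa1 fell by 1.90 ± 0.23. Summed Sertoli and Leydig markers were higher in the same libraries, the latter at 3074 to 4735 CPM in wild type and 9153 to 13710 CPM in the knockout, and their part in the stress lists was not tested.

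Earlier ages placed these changes in time, with other libraries and a separate table for each age. At P14 edgeR called none of 15922 genes. D1Pas1 itself went uncalled, at a log2 fold change of -1.28, so a lack of calls at P14 does not show a lack of change. There 948 had an unadjusted p under 0.05, and DESeq2 called 47 higher and 10 lower. At P18 edgeR called 502 higher (3.19%) and 2365 lower (15.0%). Of the 5579 genes lower at P28, 1984 were called lower at P18, which is 35.6% of the P28 list and 83.9% of the P18 list. Of the 4347 genes higher at P28, 295 were called higher at P18, 6.79% of the P28 list and 58.8% of the P18 list. This count of P28 higher genes called higher at P18 was 156 without P18 knockout library 11, 47 without knockout library 12 and 55 without wild-type library 8. The genes lower at both ages had a median of -2.16 at P28. A further 1538 genes lower at P28 were too low to be tested at P18, a choice that itself favours deep P28 falls.

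All 42 axoneme genes were lower at P18 already, and 33 of 37 pachytene genes, and the X-linked spermatid list had a median of 0.26 over the 10 genes testable at P18 and of -6.56 over 30 genes at P28, so over unlike members. Synapsis genes stood at -0.09 at P18, with 11 of 43 lower and 1 higher, and at 0.66 at P28, with 7 lower and 21 higher. Sertoli and macrophage markers had medians of 0.20 and 0.13 at P18 and 0.92 and 1.25 at P28. These differences between ages were not tested.

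**Figure D5:**
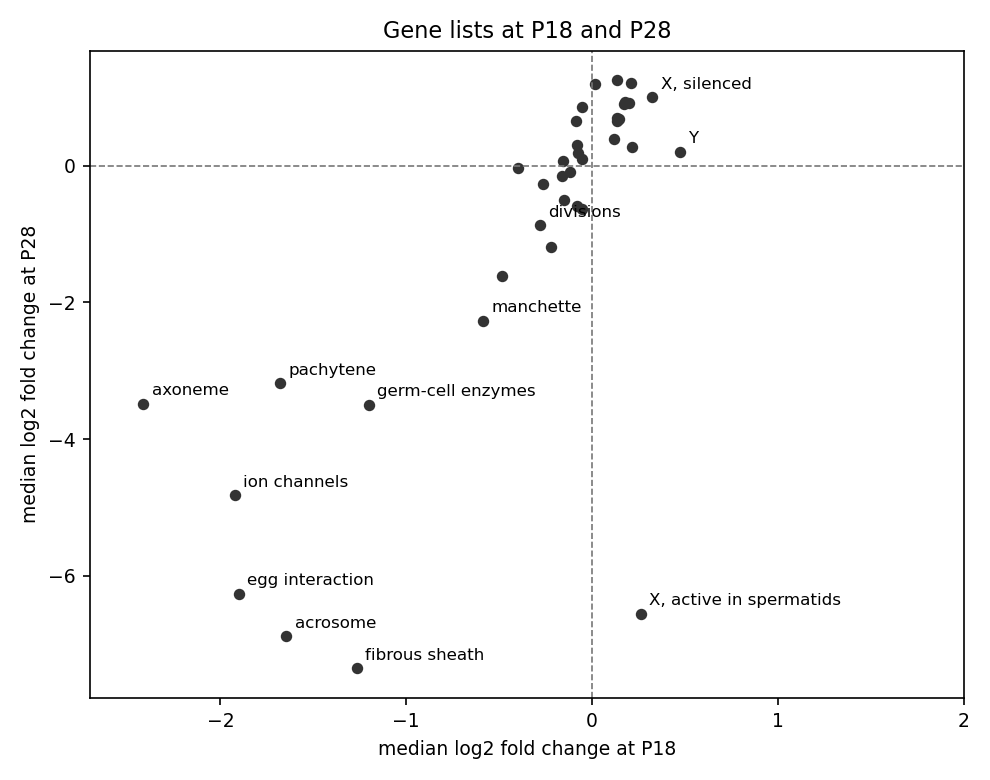
Median log2 fold change of gene lists with at least 9 testable genes at P18 (horizontal axis) and P28 (vertical axis), each point a list. The axoneme list lies farthest left, at -2.42, the sheath list lowest, at -7.36, and the X-linked spermatid list lies low without lying left.

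A further 46 genes were called in opposite directions at the 2 ages, 40 of them higher at P18 and lower at P28. Tsga8, an X-linked germ-cell gene, had a log2 fold change of 1.83 at P18 and -2.67 ± 0.32 at P28. Clip4, of the microtubule plus end, had 0.44 and -3.67, and Tuba4a, an alpha tubulin gene, 0.62 and -3.46. Dgkh, a diacylglycerol kinase gene, stood at 4.59, 4.92 and 7.08 CPM in wild type and at 9.52, 10.99 and 9.43 CPM in the knockout at P18. At P28 it stood at 188, 126 and 85.7 CPM in wild type and at 4.22, 4.29 and 4.07 CPM in the knockout. These 4 genes were picked after their values were seen.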

How the data were processed

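RNA was extracted from testis with an RNeasy kit and libraries followed NEB protocols, per the labels' protocols. The submitters' processing notes name cutadapt 3.4 for trimming and mm10 as the build; the aligner is not stated there. The authors deposited estimated counts per gene, 1 column per library and a table for each age, not scaled. Here they were rounded to whole numbers, filtered with filterByExpr by genotype, scaled with TMM factors and tested within each table with edgeR 4.0.16 (quasi-likelihood F-test, adjusted p threshold 0.05). DESeq2 1.42.0 was an alternative. The standard error is the fold change divided by the square root of F. CPM uses the TMM-scaled library size and is not per length, so levels are compared only within a gene. Fitted folds of genes at 0 depend on the prior count. The test was run first on simulated data, in which few genes changed, evenly up and down. Its recovery criterion was not met, was lowered and was then replaced after the result was seen. That run did not cover falls as many and as lopsided as those here, so no assurance is drawn from it. From each list, up to 4 called members with the smallest p in the majority direction and 2 in the other could be named. So could the most abundant uncalled member, the 10 largest rises and falls, and pair members. Not every such gene is described. The gene lists, genes and comparisons were chosen with earlier results of these data known.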

Additional observations from a re-analysis of the deposited data

Results flagged for a closer look

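These 4 genes were called higher in the knockout at P18 and lower at P28, with no overlap between the groups at either age; the difference between the ages was not tested. Their P28 log2 fold changes were -4.99 for Dgkh, -3.67 for Clip4, -3.46 for Tuba4a and -2.67 for Tsga8. In all, 46 genes were called in opposite directions at P18 and P28, and for all 46 the groups did not overlap at either age. Choosing genes called at both ages with 3 libraries per group largely brings this about, so it adds no evidence. At P28 the groups did not overlap for 68.5% of all genes tested.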

How the results depend on the processing

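The genes called higher at P28 numbered 7276 with library totals, 6932 with upper-quartile factors, 231 with Sertoli-list factors and 2369 with at least a 2-fold change. Leaving out a library gave 2244 (without wild-type library 2) to 4535, with 2897 without knockout library 5. The genes called lower at P28 numbered 8824 with Sertoli-list factors and 4878 to 5735 with a library left out. The X-linked genes called higher at P28 numbered 31 with Sertoli-list factors and 225 (without wild-type library 2) to 355 with a library left out, and 36 gene lists, against 23, had a median below 0 with Sertoli-list factors. For P28 higher genes called higher at P18, DESeq2 gave 540 and library totals 1005, against 295; leaving out a library gave 47 to 431, with 156 without knockout library 11, 47 without knockout library 12 and 55 without wild-type library 8. At P14 DESeq2 called 2 of the P28 lower and 12 of the P28 higher genes, the fit with no low-count filter 1 of the lower, and leaving out a library 0 to 1 of each. Of 62 followed genes called higher, only 23 stayed called higher with Sertoli-list factors. Among those that lost the call were Hook3 (0.04), Mad2l1 (0.06), Vps54 (0.23) and Ccnb3 (0.29). With these factors the fold change turned sign for Slc25a31 (-0.81), H3f3b (-0.82), Hist1h2ba (-0.82), Hk2 (-0.16), Cyct (-0.87), Uty (-0.019), Usp9y (-0.26), Zfy2 (-0.82) and Piwil2 (-0.72). Id4 turned to 0.54 with library totals and 0.40 with upper-quartile factors, 2-qG3-1029 to 0.26 and 0.13, and Hist1h2ba to -0.0025 with DESeq2 size factors. With a library left out, the uncalled Slc25a31 ranged from -0.039 to 0.24, Hist1h2ba from -0.30 to 0.32, Id4 from -0.15 to 0.19 and Cyct from -0.18 to 0.48. The cause of these changes was not tested. No paired analysis was possible because the table's columns number the knockout libraries 4 to 6 and the wild-type libraries 1 to 3. The share without mitochondrial genes was not run, since the table names none. The 3 libraries per group limit the precision.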
